A study of Homo sapiens with 10 samples.

Results

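The genes described here are the 40 genes of the count table whose symbols are FANC plus a letter, RAD plus a number and at most 1 letter, XRCC plus a number, ERCC plus a number, BRCA1 or BRCA2, out of 28380 genes in all. The rule uses the symbols and no measured value, but this group of genes was proposed with earlier results of these data known. The rule took 9 FANC, 16 RAD, 6 XRCC, 7 ERCC and 2 BRCA genes, and it takes in RAD21, a cohesin subunit, while leaving out repair genes with other names, such as FANCD2, ATM and MSH6. Telomerase-immortalized human retinal pigment epithelial cells, the RPE-1 line, were given 25 µM sulforaphane (SFN), an isothiocyanate from cruciferous vegetables, or its vehicle DMSO for 4 h. Each group had 5 replicates of 50000 cells, kept in complete medium with no other agent, and both groups came from this 1 line. RNA was sequenced from the 3′ ends of transcripts, and the total count per library ranged from 15689294 to 20666692 in DMSO and from 12375860 to 17308706 in SFN. Levels are given in CPM, counts scaled by the TMM method to a common library size, and a gene was called lower or higher in SFN where its adjusted p was under 0.05 by edgeR's quasi-likelihood test over the 13378 genes with enough counts. In all, 39 of the 40 members were tested, and 1 had too few counts. Nothing in the labels says that the replicates came from separate cultures, so the p-values measure the spread between these libraries, which may be technical.

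These genes encode much of the machinery that repairs lesions in DNA. The Fanconi anemia core complex recognizes crosslinks between strands and attaches ubiquitin to the FANCI and FANCD2 pair, BRCA1, BRCA2 and their helpers act in copying the intact sister strand at double-strand breaks, and the ERCC proteins cut out bulky lesions such as those left by ultraviolet light. The Ku proteins XRCC5 and XRCC6 bind broken ends that are then joined directly. RAD9 and RAD1 are subunits of a clamp that RAD17 loads at damaged sites, and the clamp signals to the checkpoint kinase ATR. Many genes of the Fanconi and recombination pathways are known to be transcribed mostly in late G1 and S phase of the cell cycle.

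DMSO replicate 1 stood apart from the other libraries. The slope of its log2 CPM, set against the mean of the libraries, on log2 transcript length was -0.271, against 0.0872 to 0.148 in the other DMSO replicates. Its mean Spearman correlation with the other DMSO libraries across genes was 0.935. The same mean was 0.979 to 0.982 for each of the other DMSO replicates, in which the correlation with DMSO replicate 1 is included. SFN replicate 2 had a slope of -0.183 and SFN replicate 5 of 0.109, with -0.0574 to -0.0355 in the other SFN libraries. Where leaving out DMSO replicate 1 changed a call or moved a count by over 1.5 times, the value without it is also given. Of the defining markers of pigment epithelium, MITF and OTX2 were at 8.69 CPM or more and BEST1 at 5.42 CPM or more in every library, whereas RPE65, RLBP1, TYRP1, SERPINF1 and TTR had at most 4 counts in any library, and PMEL had 7 to 29. The means of BEST1 were 18.8 CPM in DMSO and 42.4 CPM in SFN, but its single libraries ran from 5.42 to 107 CPM. The means of MITF were 50.8 and 23.4 CPM, with libraries from 18.7 to 55.1 CPM. Both markers are given as values, without a test. KRT8, KRT18, VIM, FN1 and CDH2 were at 169 CPM or more throughout, COL1A1 at 10.1 to 19.9 CPM, and KRT19 had at most 5 counts. The leukocyte markers PTPRC and ITGAM reached at most 6 counts and the endothelial markers PECAM1, VWF and CDH5 at most 9, while TYR and CD3E have no row in the table.

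After 4 h of SFN, 11 of the 39 members tested were lower and 1, RAD9B, was higher. The 11 are 28.2% of the members, against a background in which 13.9% of all genes tested were called lower, 9.07% higher and 23.0% in either direction. In these bulk samples fewer cells that express a gene and less RNA per cell cannot be told apart. The lower members were FANCF, FANCE, FANCB and FANCL of the Fanconi core complex, RAD54L, RAD52, RAD54B, BRCA2 and XRCC3 of homologous recombination, and ERCC6 and ERCC4 of excision repair. The median log2 fold change of the 39 members was -0.16, with 28 of them negative, and that of all genes tested was -0.03. With an added limit of 1 on the absolute log2 fold change, 5 members stayed lower (FANCF, FANCE, FANCB, RAD52 and FANCL) and RAD9B stayed higher, where 5.76% of all genes were lower and 2.94% higher. Without DMSO replicate 1, FANCL was within that limit (-0.70), and ERCC6 (-1.15) and RAD54B (-1.10) were past it. The 5 SFN libraries all lay below the 5 DMSO libraries in 7 members and above them in none, and over all genes such separation was found in 11.1% below and 8.78% above. Counts of calls over all genes depend on the scaling: 60.5% of the calls were lower with TMM, and 72.5% with scaling to library size alone.

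**Figure D1:**
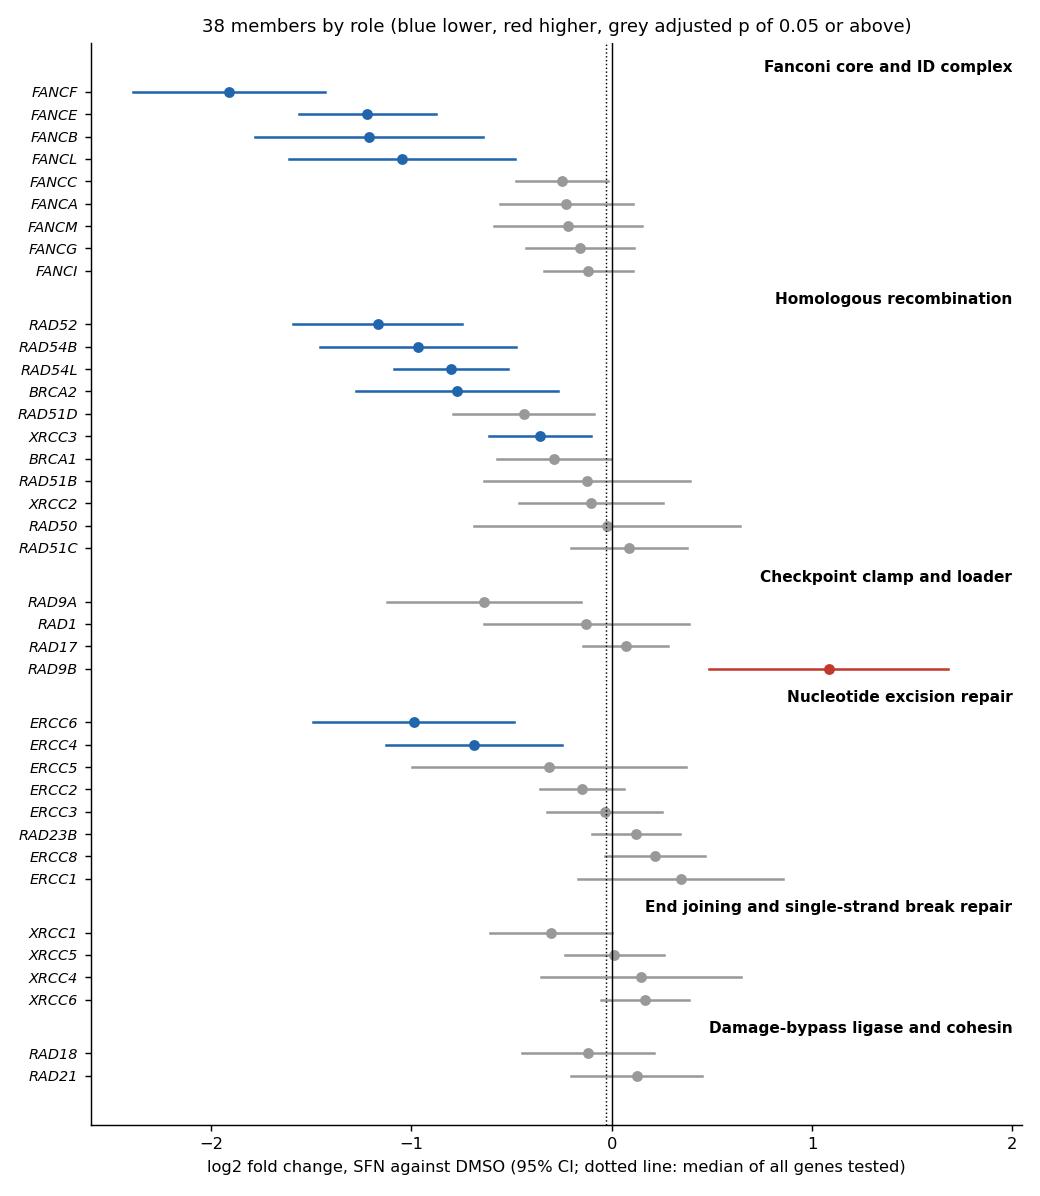
Fitted log2 fold change of SFN against DMSO (horizontal axis) with its 95% confidence interval for 38 of the 39 members tested, grouped by role. Blue marks the 11 lower members, red RAD9B and grey those not called, the solid line is 0 and the dotted line the median of all genes tested, -0.03. All 9 Fanconi genes lie left of 0, with FANCF farthest at -1.91, and the end joining genes lie around 0.

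The promoter sequences of FANCF, FANCE and RAD54L are shown because these members had the smallest adjusted p, and that of RAD9B because it was the member called higher. Each is 300 bases from RefSeq on GRCh38.p14, 250 before a transcription start and 50 after, written 5′ to 3′ on the strand of the gene. Capitals mark CCAAT boxes (CCAAT, or ATTGG for its other strand) and the cell cycle homology region CHR (TTTGAA or TTCAAA). The window of FANCF is chr11:22625774-22626073 on the minus strand, that of FANCE chr6:35452088-35452387 on the plus strand, that of RAD54L, the first of 2 windows listed for the gene, chr1:46247438-46247737 on the plus strand, and that of RAD9B chr12:110502081-110502380 on the plus strand.
FANCF: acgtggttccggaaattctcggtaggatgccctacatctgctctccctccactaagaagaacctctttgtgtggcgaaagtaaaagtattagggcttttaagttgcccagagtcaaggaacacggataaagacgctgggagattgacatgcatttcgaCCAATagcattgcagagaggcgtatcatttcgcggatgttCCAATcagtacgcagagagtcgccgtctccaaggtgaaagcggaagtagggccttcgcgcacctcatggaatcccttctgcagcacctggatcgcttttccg
FANCE: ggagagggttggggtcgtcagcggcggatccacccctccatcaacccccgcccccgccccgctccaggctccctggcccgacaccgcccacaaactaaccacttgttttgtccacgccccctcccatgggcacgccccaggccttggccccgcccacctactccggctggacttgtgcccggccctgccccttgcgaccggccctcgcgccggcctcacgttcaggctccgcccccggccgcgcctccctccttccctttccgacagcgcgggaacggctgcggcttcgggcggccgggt
RAD54L: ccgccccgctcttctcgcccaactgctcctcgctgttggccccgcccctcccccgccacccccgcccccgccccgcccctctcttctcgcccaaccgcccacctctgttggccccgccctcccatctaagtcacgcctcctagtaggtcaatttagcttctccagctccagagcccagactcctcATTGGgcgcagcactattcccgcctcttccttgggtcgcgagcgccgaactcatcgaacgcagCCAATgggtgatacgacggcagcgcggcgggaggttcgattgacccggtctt
RAD9B: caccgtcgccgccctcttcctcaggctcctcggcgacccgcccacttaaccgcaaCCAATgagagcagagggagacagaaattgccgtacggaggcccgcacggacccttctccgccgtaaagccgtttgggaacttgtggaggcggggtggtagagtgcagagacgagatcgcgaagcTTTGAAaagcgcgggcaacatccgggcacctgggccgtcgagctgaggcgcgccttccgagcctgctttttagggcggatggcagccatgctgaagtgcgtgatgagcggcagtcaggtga

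FANCF and RAD54L each held 2 CCAAT boxes, RAD9B held 1 CCAAT box and 1 CHR, and the FANCE window held neither. RefSeq windows were found for 34 of the 40 members (48 windows, since some genes have several starts), and motifs were searched on both strands. The CCAAT box was in 37.5% of the members' windows and in 34.6% of all 35116 windows, and the CHR in 12.5% and 15.2%. Simple E2F words (TTTGGCGC, TTTCCCGC, TTTCGCGC or TTTGCCGC) were in 8.33% of the members' windows and 3.32% of all. The ETS word CCGGAAG was in 22.9% and 10.3%, the NRF1 word (GCGC, NN and GCGC) in 16.7% and 8.32%, the antioxidant response element core TGACNNNGC in 6.25% and 13.4%, and the ATF4 word TGATGNAA in 0 of the members' 48 windows and 3.62% of all. Of the 10 lower members with a window, 3 held a CCAAT box, 2 the ETS word, 1 the NRF1 word and 1 the CHR. The E2F, antioxidant response and ATF4 words were in 0 of the 10. All these are matches of letters in short windows and were not compared by a test.

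In the Fanconi group, 4 of 9 members (44.4%) fell, against 13.9% of all genes tested, and the median log2 fold change was -0.25. FANCF, an adaptor that holds the core complex together, had the largest fold change of the members. Its CPM was 17.8, 9.52, 11.2, 10.8 and 8.76 in DMSO replicates 1 to 5 and 3.28, 2.93, 3.05, 3.85 and 2.26 in SFN replicates 1 to 5. The groups did not overlap, and DMSO replicate 1 was the highest library. SFN stood at 0.266 of the DMSO level (log2 fold change -1.91, SE 0.22, adjusted p = 8.47e-05), and at -1.71 on the log2 scale without DMSO replicate 1. FANCE, which bridges the core complex to FANCD2, was at 10.2, 15.7, 15.2, 14.7 and 12.1 CPM in DMSO and 6.38, 4.57, 5.88, 5.74 and 6.50 CPM in SFN, so that every SFN library was below every DMSO library although DMSO replicate 1 was the lowest of its group. Its level fell to 0.429 of that in DMSO (log2 fold change -1.22, SE 0.16, adjusted p = 0.00018).

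FANCB and FANCL belong to the catalytic part of the core complex, in which FANCL is the ubiquitin ligase and FANCB its partner. FANCB was at 9.53, 17.8, 14.3, 21.4 and 20.7 CPM in the DMSO replicates and 6.14, 4.75, 6.55, 7.36 and 11.3 CPM in the SFN replicates. Its groups overlapped, since DMSO replicate 1 lay below SFN replicate 5, and they were separate without DMSO replicate 1. The log2 fold change was -1.21 (SE 0.26, adjusted p = 0.0057). FANCL was at 62.5, 26.5, 26.9, 25.6 and 26.3 CPM in DMSO and 15.02, 15.7, 19.7, 17.9 and 12.8 CPM in SFN. Here DMSO replicate 1 was far above the other 4 DMSO libraries, which agreed closely, and the SFN libraries were below them all. The log2 fold change of FANCL was -1.05 (SE 0.26, adjusted p = 0.012) and -0.70 (adjusted p = 0.00030) without DMSO replicate 1. An exon of VRK2 lies opposite the last exon of FANCL, and since the use of strand in counting is not given, reads of the pair cannot be told apart, but VRK2 itself had a log2 fold change of -0.09 (adjusted p = 0.75). GAS2, whose annotation lies opposite the last exon of FANCF, had at most 6 counts in any library.

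The other Fanconi genes FANCA, FANCC, FANCG, FANCM and FANCI had negative log2 fold changes between -0.25 and -0.12 with adjusted p of 0.12 to 0.47. For FANCC the SFN libraries, at 8.33 to 9.23 CPM, all lay below the DMSO libraries, at 9.78 to 11.7 CPM, a separation with an adjusted p of 0.12. Without DMSO replicate 1, FANCA (-0.35, adjusted p = 0.0057) and FANCM, a helicase-like protein that moves along DNA at blocked forks (-0.34, adjusted p = 0.029), were also lower. FANCI, the partner of FANCD2, had an interval of -0.34 to 0.11. All 9 Fanconi genes were negative under each of the 5 other scalings and tests compared.

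**Figure D2:**
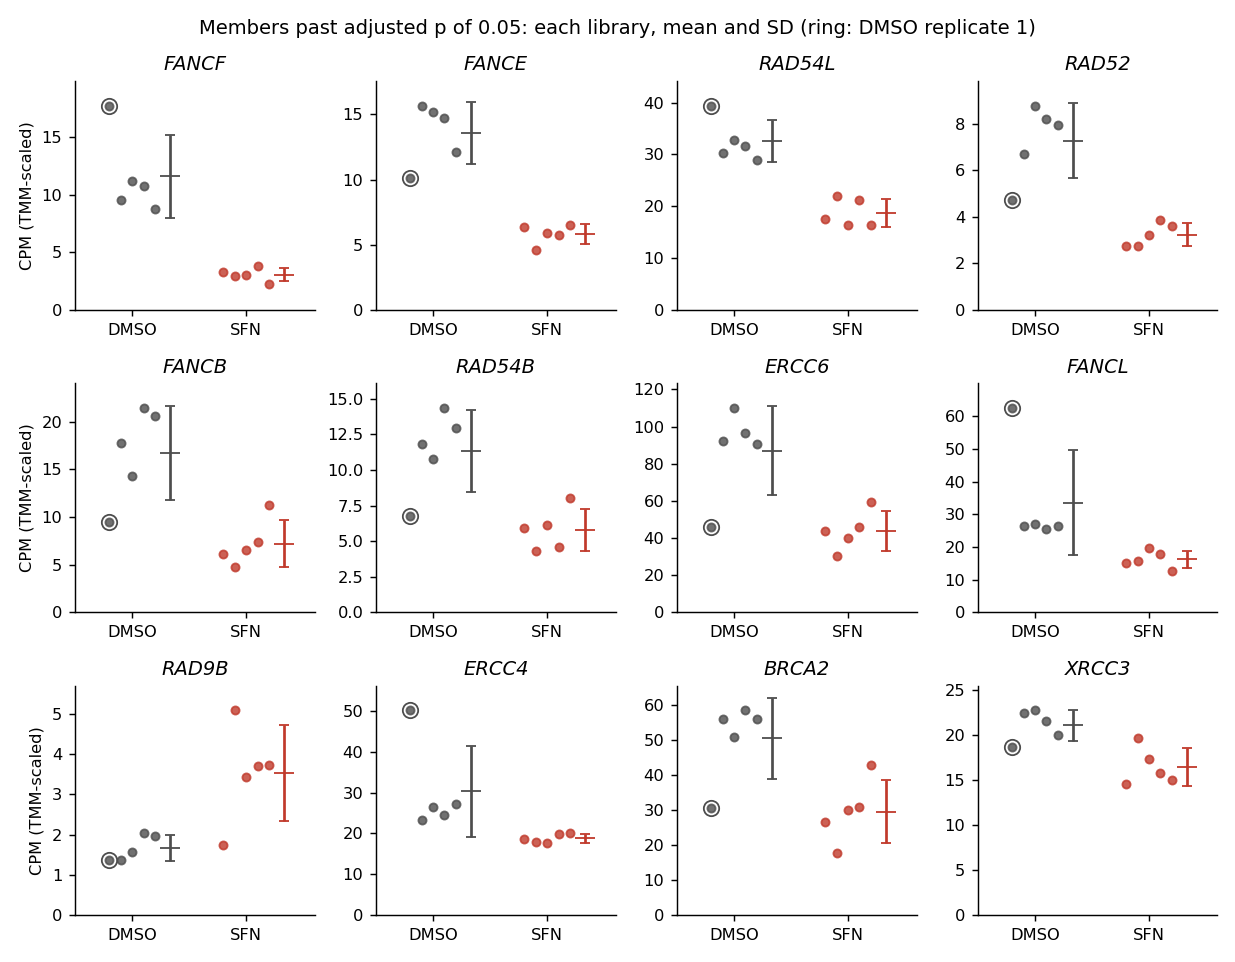
CPM after TMM scaling (vertical axis, from 0) in each of the 5 DMSO (grey) and 5 SFN (red) libraries for the 12 called members, in order of p, with the mean and SD beside the points and a ring around DMSO replicate 1. For the 11 lower members the SFN points lie below the DMSO points other than the ringed one, which is highest in FANCF, RAD54L, FANCL and ERCC4 and lowest of its group in the 7 others. RAD9B is the only panel with higher SFN points, from 1.73 to 5.09 CPM.

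Among the 11 recombination genes tested, 5 (45.5%) fell, against 13.9% of all genes tested, and the median log2 fold change was -0.36. RAD54L and RAD54B encode motor proteins that move along DNA and act when a broken end pairs with its template. RAD54L was at 39.4, 30.3, 32.8, 31.6 and 29.01 CPM in DMSO and 17.6, 21.9, 16.5, 21.1 and 16.4 CPM in SFN. No libraries overlapped, and DMSO replicate 1 was the highest. The SFN level was 0.574 of that in DMSO (log2 fold change -0.80, SE 0.13, adjusted p = 0.00091). LRRC41, which has an exon opposite the last exon of RAD54L, had a log2 fold change of -0.04 (adjusted p = 0.84). RAD54B was at 6.79, 11.8, 10.8, 14.3 and 12.96 CPM in the DMSO replicates and 5.90, 4.31, 6.11, 4.59 and 8.05 CPM in the SFN replicates. DMSO replicate 1 was below SFN replicate 5 and the 4 other DMSO libraries were above all SFN libraries. The log2 fold change of RAD54B, which overlaps FSBP on the same strand, was -0.97 (SE 0.22, adjusted p = 0.0086).

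RAD52, which anneals single strands, was at 4.73, 6.70, 8.78, 8.19 and 7.93 CPM in DMSO and 2.74, 2.76, 3.20, 3.85 and 3.60 CPM in SFN. DMSO replicate 1 was the lowest of its group and still above every SFN library. RAD52 fell to 0.445 of its DMSO level (log2 fold change -1.17, SE 0.19, adjusted p = 0.0011). XRCC3, which forms a complex with RAD51C, had a smaller difference, from 18.6, 22.4, 22.7, 21.5 and 20.01 CPM in DMSO to 14.5, 19.7, 17.3, 15.7 and 14.97 CPM in SFN. SFN replicate 2 lay above DMSO replicate 1, and the other libraries did not cross. Its log2 fold change was -0.36 (SE 0.12, adjusted p = 0.045), and the call was lost when DMSO replicate 2, 3, 4 or 5 or SFN replicate 1, 3, 4 or 5 was left out, with adjusted p of 0.068 to 0.12.

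BRCA2 acts on single-stranded DNA at resected breaks. It was at 30.6, 56.1, 51.04, 58.5 and 56.2 CPM in DMSO and 26.6, 17.7, 30.01, 30.8 and 42.8 CPM in SFN. DMSO replicates 2 to 5 were all above the SFN libraries, while DMSO replicate 1 lay among them, below SFN replicates 4 and 5. The log2 fold change was -0.77 (SE 0.23, adjusted p = 0.032) and -0.91 (adjusted p = 0.00089) without DMSO replicate 1. Leaving out DMSO replicate 2, 3, 4 or 5 or SFN replicate 1, 2, 3 or 4 ended the call, with adjusted p of 0.058 to 0.078 and log2 fold changes of -0.78 to -0.63.

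BRCA1, a ubiquitin ligase that acts in end resection and helps to recruit BRCA2, was at 114, 143, 152, 147 and 145 CPM in DMSO and 112, 102, 106, 106 and 149 CPM in SFN. SFN replicates 1 to 4 were below all DMSO libraries, and SFN replicate 5 was within the range of DMSO. The difference did not pass the threshold (log2 fold change -0.29, SE 0.13, adjusted p = 0.14). It passed without DMSO replicate 1 (-0.36, adjusted p = 0.013) and without SFN replicate 5 (-0.40, adjusted p = 0.027).

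The other recombination genes RAD50, RAD51B, RAD51C, RAD51D and XRCC2 were not called. RAD51D, which works in a complex with XRCC2, was at 18.3 ± 3.12 CPM in DMSO and 13.5 ± 2.36 CPM in SFN (SD, n = 5 each; log2 fold change -0.44, adjusted p = 0.072), and at -0.54 (adjusted p = 0.0033) without DMSO replicate 1. For RAD50, the arm of the complex that tethers broken ends, the interval of -0.69 to 0.64 was wide, with 43 to 187 counts per library. RAD51C had an interval of -0.20 to 0.38, XRCC2 one of -0.46 to 0.26 and RAD51B one of -0.64 to 0.39.

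RAD9B, a paralog of the clamp subunit RAD9A, was the member called higher. It was at 1.37, 1.37, 1.56, 2.048 and 1.95 CPM in DMSO and 1.73, 5.09, 3.42, 3.71 and 3.74 CPM in SFN, which corresponds to 22 to 34 and 29 to 59 counts per library. SFN replicate 1 lay within the range of DMSO and the other 4 SFN libraries were above it. Its log2 fold change was 1.08 (SE 0.27, adjusted p = 0.014). PPTC7, which has an exon opposite the last exon of RAD9B and was at 23.0 ± 4.11 CPM in DMSO, had a log2 fold change of -0.20 (adjusted p = 0.37). RAD9A was at 5.88 ± 1.34 CPM in DMSO and 3.80 ± 1.05 CPM in SFN (SD, n = 5 each; log2 fold change -0.64, adjusted p = 0.059), and passed the threshold without DMSO replicate 1 (-0.53, adjusted p = 0.044), without DMSO replicate 3 (-0.73, adjusted p = 0.047) and without SFN replicate 2 (-0.78, adjusted p = 0.025). With all libraries it also passed by DESeq2 (adjusted p = 0.033), and by edgeR with scaling to library size alone (adjusted p = 0.024) or with transcript length offsets (adjusted p = 0.014). PPP1CA, which has an exon opposite the last exon of RAD9A and was at 95.3 ± 21.0 CPM in DMSO, had a log2 fold change of 0.30 (adjusted p = 0.25). RAD17, which loads the clamp, had an interval of -0.14 to 0.28. RAD1, the third clamp subunit, had a log2 fold change of -0.13 with all libraries and 0.20 (adjusted p = 0.064) without DMSO replicate 1, where it stood at 96.3 CPM against 38.5 to 44.6 CPM in the other DMSO libraries.

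In the nucleotide excision repair group 2 of 9 members (22.2%) fell, against 13.9% of all genes tested, with a median log2 fold change of -0.04. Without DMSO replicate 1, 3 were lower and 2 higher, with a median of -0.14. Over all genes 23.5% were then lower and 22.5% higher. ERCC6, the CSB protein that recognizes stalled RNA polymerase, was at 46.2, 92.5, 110, 96.4 and 90.6 CPM in DMSO and 43.7, 30.4, 39.9, 45.8 and 59.7 CPM in SFN. DMSO replicate 1 lay within the range of SFN and the 4 other DMSO libraries were all above it. ERCC6 stood at 0.504 of its DMSO level (log2 fold change -0.99, SE 0.23, adjusted p = 0.0087), and without DMSO replicate 1 the log2 fold change was -1.15 (adjusted p = 3.06e-05). ERCC4, the XPF nuclease subunit that also cuts at crosslinks, was at 50.1, 23.3, 26.4, 24.5 and 27.1 CPM in DMSO and 18.5, 17.9, 17.6, 19.8 and 20.1 CPM in SFN. The groups did not overlap, and DMSO replicate 1 was far above the rest of its group. The log2 fold change was -0.69 (SE 0.20, adjusted p = 0.028) and -0.44 (adjusted p = 0.00195) without DMSO replicate 1. Leaving out SFN replicate 1, 2, 3 or 4 gave adjusted p of 0.051 to 0.068 for ERCC4.

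ERCC1, the partner of ERCC4 in the same nuclease, went the other way in the 9 libraries without DMSO replicate 1. It was at 91.5, 43.6, 43.9, 38.8 and 38.7 CPM in DMSO and 63.9, 76.5, 67.5, 66.3 and 51.6 CPM in SFN, so that DMSO replicate 1 was above all SFN libraries and the 4 other DMSO libraries below them. The log2 fold change was 0.35 (SE 0.23, adjusted p = 0.34) with all libraries and 0.65 (adjusted p = 0.00025) without DMSO replicate 1. POLR1G, which overlaps the last exon of ERCC1 on the other strand, was itself lower (125 ± 82.5 CPM in DMSO and 36.8 ± 9.76 CPM in SFN, SD, n = 5 each, log2 fold change -1.76, adjusted p = 0.0034). ERCC8, the CSA protein that works with ERCC6, was higher without DMSO replicate 1 (0.27, adjusted p = 0.046) and had an interval of -0.03 to 0.46 with all libraries. The helicases ERCC2 and ERCC3 of the transcription factor TFIIH had intervals of -0.36 to 0.06 and -0.32 to 0.25, and the damage sensor RAD23B one of -0.10 to 0.34. ERCC5, a nuclease counted at only 18 to 95 reads per library and annotated together with the readthrough gene BIVM-ERCC5, had an interval of -0.996 to 0.370, and was lower without DMSO replicate 1 (-0.54, adjusted p = 0.028).

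None of the 4 end joining and single-strand break genes was called by edgeR, and none had an unadjusted p under 0.05 or was called by DESeq2 or limma-voom (0 of 4 in each). Over all genes tested, edgeR called 23.0% in either direction. The Ku subunit genes XRCC5, at 913 ± 123 CPM in DMSO and 921 ± 46.6 CPM in SFN, and XRCC6, at 580 ± 36.0 and 650 ± 51.7 CPM (SD, n = 5 each), had log2 fold changes of 0.01 (interval -0.23 to 0.26) and 0.16 (interval -0.05 to 0.38). XRCC4, which holds ligase IV, had DMSO replicate 1 at 45.5 CPM, above the SFN libraries at 24.9 to 32.7 CPM, and the other DMSO libraries at 20.1 to 21.1 CPM, below them. Its log2 fold change was 0.15 (adjusted p = 0.70) with all libraries and 0.45 (adjusted p = 0.0023) without DMSO replicate 1. XRCC1, the scaffold of single-strand break repair, had -0.30 (adjusted p = 0.15) and -0.41 (adjusted p = 0.0032). RAD18, a ubiquitin ligase for PCNA at blocked forks, had an interval of -0.45 to 0.21 and RAD21 one of -0.20 to 0.45, and for this pair too the counts were 0 of 2 by edgeR, at unadjusted p under 0.05, by DESeq2 and by limma-voom.

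DMSO replicate 1 was above all other DMSO libraries in 13 of the 39 members, below them in 23 and within their range in 3. Its log2 departure from the mean of the other DMSO libraries ran from -1.81 in ERCC5 to 1.25 in FANCL. Across the 39 members, which share these libraries and are not independent, the departure had a Pearson correlation of -0.38 and a Spearman correlation of -0.37 with log2 transcript length, so that short transcripts such as FANCL and XRCC4 tended to be high in that library and long ones such as BRCA2 and ERCC6 low. The fitted log2 fold changes of the members with all libraries had a Pearson correlation of 0.01 with length and -0.03 with GC content of the transcript.

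**Figure D3:**
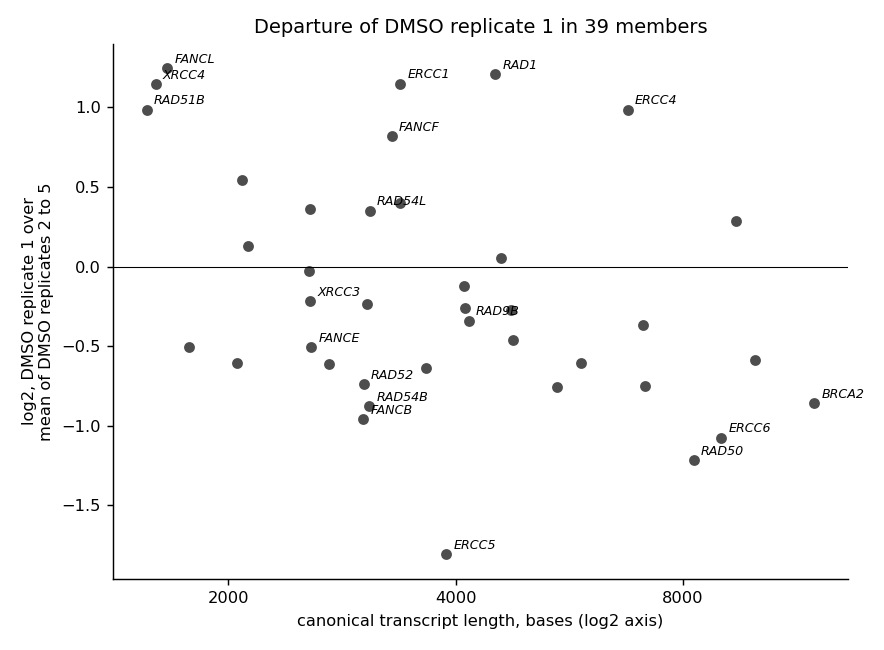
Log2 ratio of DMSO replicate 1 to the mean of DMSO replicates 2 to 5 (vertical axis) against the length of the canonical transcript in bases (horizontal, log2 axis) for the 39 members, with called members and departures over 0.9 named. The points run from 1.25 for FANCL to -1.81 for ERCC5, and BRCA2, ERCC6 and RAD50 at the right lie below 0 while ERCC4 lies above it.

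Without DMSO replicate 1, 18 members were lower and 4 higher, with a median log2 fold change of -0.22. The background rose as well, to 23.5% of genes lower and 22.5% higher. All 12 members called with every library were called again in the same direction. The members added were BRCA1, ERCC5, FANCA, FANCM, RAD51D, RAD9A and XRCC1 on the lower side, and ERCC1, ERCC8 and XRCC4 on the higher side. With DMSO replicate 1 left out, the 5 SFN libraries lay below the 4 DMSO libraries in 17 of the 39 members and above them in 4, while over all genes tested with every library such separation was found in 19.6% below and 16.6% above. The 17 hold all 11 lower members, of which 6 were separate when DMSO replicate 1 was kept, but these had been called on mostly the same libraries. Median log2 level over the members, set against the mean of the DMSO libraries, was -0.210 in DMSO replicate 1, 0.0039 to 0.0858 in the other DMSO libraries and -0.213 to -0.132 in the SFN libraries.

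**Figure D4:**
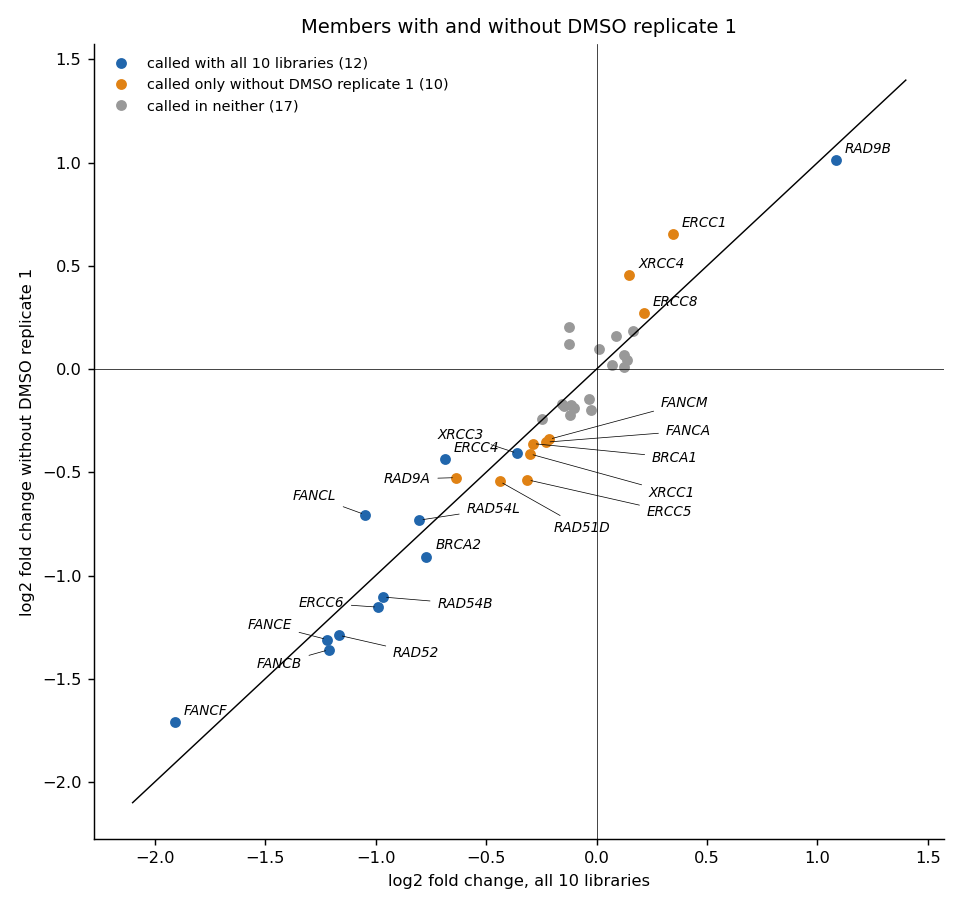
Log2 fold change of SFN against DMSO for the 39 members with all 10 libraries (horizontal axis) and without DMSO replicate 1 (vertical axis), with the line of equality. Blue marks the 12 members called with all libraries, orange the 10 called only without DMSO replicate 1 and grey the 17 called in neither. FANCL, RAD1, ERCC1, XRCC4 and ERCC4 lie farthest above the line (RAD1 is an unnamed grey point), and FANCF stays lowest at -1.91 and -1.71.

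Calls were also counted by the depth behind each member. CPM is not divided by transcript length, so it serves here as the depth behind a gene and not to rank genes. Of the 14 members with a mean of at least 50 CPM, 1 was lower, ERCC6, and 0 were higher. Of the 15 between 10 and 50 CPM, 6 were lower and 0 higher, and of the 10 below 10 CPM, 4 were lower and 1 higher. Over all genes, 6.56%, 16.9% and 17.3% were called lower in these 3 bands, and 12%, 7.86% and 7.74% higher. The 11 lower members had transcripts of 1658 to 11954 bases with a median of 3074, and the 27 members not called had 1559 to 9966 bases with a median of 3888.

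Neighbouring genes were examined because several members share a start or a 3′ end with another gene. An exon of another gene lay opposite the last exon in 12 members, and 8 of those partners had enough counts to be tested. Divergent starts within 1 kb joined 11 members to 12 tested partners. Among lower members, FANCF, FANCL and RAD54L had an antisense partner, of which VRK2 and LRRC41 were tested, and FANCB and XRCC3 a divergent one, MOSPD2 and ZFYVE21. None of these 4 tested partners was called, with log2 fold changes of -0.09 for VRK2, -0.04 for LRRC41, 0.30 for MOSPD2 (adjusted p = 0.34) and 0.06 for ZFYVE21 (adjusted p = 0.74). Over all genes tested, 23.0% were called in either direction. Among partners of other members, POLR1G of ERCC1 was lower (-1.76, adjusted p = 0.0034) and TMEM167A of XRCC4 was higher (0.41, adjusted p = 0.028).

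Repair genes outside the naming rule were taken from lists by pathway, 152 genes of which 149 were tested. Among them 26 were lower and 6 higher, 17.4% and 4.03% against the background of 13.9% and 9.07%, and their median log2 fold change was -0.18. Without DMSO replicate 1, 57 were lower and 18 higher, beside the backgrounds of 23.5% and 22.5%. The mismatch repair list had 5 of 7 genes lower, among them MLH3, MSH6, PMS1 and PMS2, with a median of -0.75, and again 5 without DMSO replicate 1. MSH6, which recognizes single mismatches, went from 293 ± 14.1 CPM in DMSO to 155 ± 9.54 CPM in SFN (SD, n = 5 each; log2 fold change -0.92, SE 0.09, adjusted p = 3.05e-05), MLH3 had -1.24 (adjusted p = 0.00048) and PMS2 -0.81 (adjusted p = 0.020). MSH3, with -0.02, was not called.

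None of the 13 Fanconi partners was called by edgeR, DESeq2 or limma-voom (0 in each), and 1 had an unadjusted p under 0.05. Over all genes tested, edgeR called 13.9% lower and 9.07% higher, and 23.5% and 22.5% without DMSO replicate 1. FANCD2, the target of the core complex, was at 62.03 ± 13.2 CPM in DMSO and 51.3 ± 6.05 CPM in SFN (SD, n = 5 each; log2 fold change -0.27, adjusted p = 0.26), and at -0.41 (adjusted p = 0.0029) without DMSO replicate 1, where 6 of the 13 were lower and 2 higher. Of the 27 recombination partners 5 were lower (13 lower and 4 higher without DMSO replicate 1), among them FIGNL1, an ATPase that acts in recombination (-1.37, adjusted p = 0.00035), the nuclease DNA2 (-0.68, adjusted p = 0.0099) and the BLM helicase (-0.62, adjusted p = 0.0077). End joining partners had 4 of 15 lower and 1 higher (8 and 2 without DMSO replicate 1), with LIG4, the ligase that works with XRCC4, at -0.60 (adjusted p = 0.0048), RIF1 at -0.58 (adjusted p = 0.034) and DCLRE1C, the Artemis nuclease, at 0.48 (adjusted p = 0.011).

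Excision repair partners had 2 of 17 lower (11.8%), and 4 lower and 5 higher without DMSO replicate 1. The shares over all genes were 13.9% lower and 9.07% higher, and 23.5% and 22.5% without that library. The 2 lower partners were GTF2H2, a TFIIH subunit, at -0.52 and the damage sensor XPC at -0.29 (adjusted p = 0.049 for each). In base excision and single-strand break repair 4 of 23 were lower (7 without DMSO replicate 1), including LIG3 (-0.59, adjusted p = 0.016), UNG, which removes uracil (-0.46, adjusted p = 0.014), and NEIL3 (-0.40, adjusted p = 0.025). Translesion synthesis had 3 of 15 lower and 2 higher (5 and 2 without DMSO replicate 1), with SHPRH at -1.24 (adjusted p = 0.0079), REV3L, the catalytic subunit of polymerase zeta, at -0.92 (adjusted p = 0.022) and UBE2B, the ubiquitin-conjugating partner of RAD18, at 0.86 (adjusted p = 0.0052). Damage signalling had 3 of 21 lower (14.3%, near the share of all genes) and 1 higher (7 and 1 without DMSO replicate 1). There ATRIP, the partner of ATR, went from 14.8 ± 1.67 to 6.65 ± 0.72 CPM (SD, n = 5 each; log2 fold change -1.15, adjusted p = 6.61e-05), RNF168 had -0.81 (adjusted p = 0.0017) and BABAM2 0.51 (adjusted p = 0.023). The list of cohesin partners of RAD21, which also holds SMC5 and SMC6 of a separate complex, had 2 of 11 higher. They were MAU2 (0.55, adjusted p = 0.042) and NIPBL (0.43, adjusted p = 0.037), which together load cohesin. Without DMSO replicate 1, 2 were higher and 2 lower, the lower ones being SMC1A and SMC5.

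**Figure D5:**
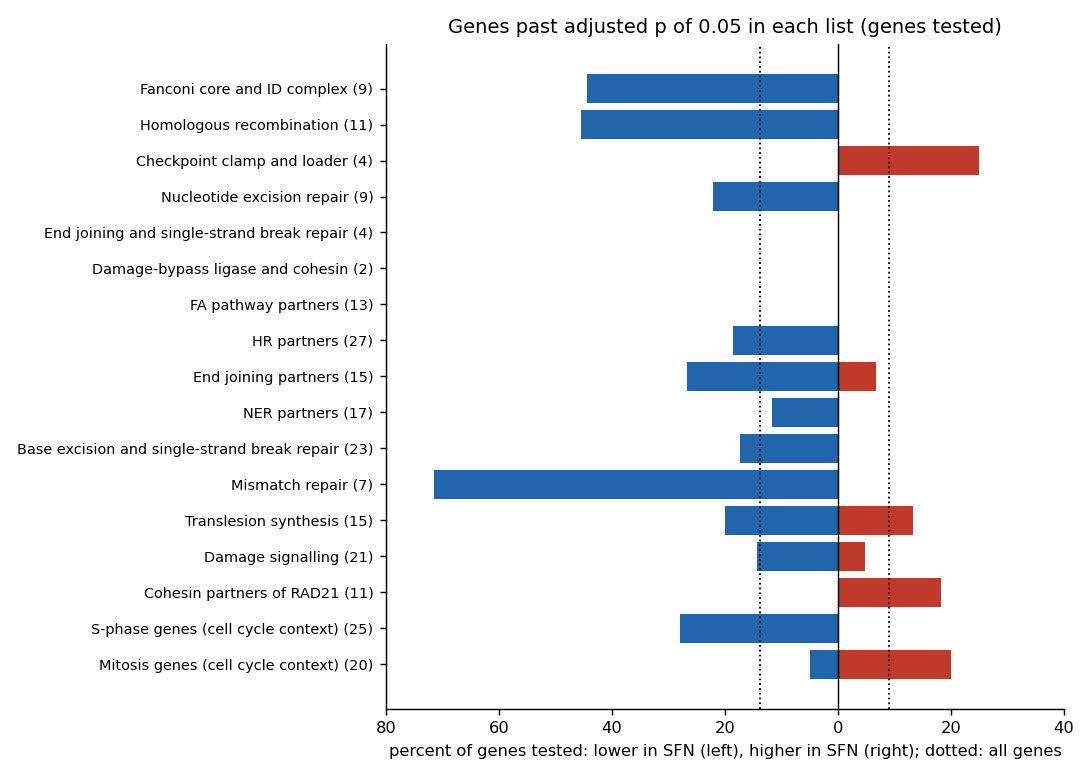
Percent of the genes tested in each list that were called lower in SFN (blue, to the left) and higher (red, to the right), with the number tested in parentheses. The first 6 bars are the members by role and the rest are repair genes outside the naming rule and cell cycle lists. Dotted lines mark all genes tested, 13.9% lower and 9.07% higher. Mismatch repair, with 5 of 7 lower, has the longest bar.

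Genes of the cell cycle were set beside the members. Over all genes tested 13.9% were lower and 9.07% higher, and 23.5% and 22.5% without DMSO replicate 1. Of 25 S-phase genes 7 were lower (11 lower and 3 higher without DMSO replicate 1), with a median log2 fold change of -0.14, and the 3 largest were CCNE2 (41.4 ± 7.11 to 9.33 ± 1.20 CPM, SD, n = 5 each, -2.15, adjusted p = 2.48e-06), E2F2 (-1.54, adjusted p = 0.00018) and CCNE1 (-1.21, adjusted p = 5.46e-05), which encode the cyclins E and an activator of S-phase transcription. Of 20 mitosis genes 4 were higher and 1 lower (9 and 2 without DMSO replicate 1), with a median of 0.16. UBE2C (0.78, adjusted p = 0.015) and HMMR (0.75, adjusted p = 0.00029) were higher, and CENPE was lower (-0.74, adjusted p = 0.020). The part of the cell cycle in the members' differences was not tested.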

How the data were processed

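RNA from 5 DMSO and 5 SFN replicates of RPE-1 cells was measured. The authors deposited unnormalized counts for each Ensembl gene, 1 column per replicate. Their methods name Lexogen QuantSeq libraries and the Bluebee pipeline, the submitters' processing notes name FastQC, STAR, featureCounts, edgeR and hg38 (GRCh38), and the labels mention Illumina protocols. Versions, the Ensembl release, the use of strand and of molecular identifiers are not given in the sources used here. The authors' own test was voomWithDreamWeights and limma with a repeated-measures term that they do not define, which was not run here.

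The deposited counts were filtered with filterByExpr, scaled by TMM and compared with glmQLFit and glmQLFTest of edgeR 4.0.16 in R 4.3.3 with Benjamini-Hochberg adjustment over 13378 genes. SEs were derived from the log2 fold change and the square root of the F statistic. DESeq2 1.42.0 and limma 3.58.1 (voom with quantile normalization) were alternatives, as were other scalings, filters, transcript length offsets, a replicate block and leaving out each replicate. The fits were tested on simulated counts, in which edgeR recovered 4.35% of log2 changes of 0.5, 68.9% of those of 1 and 98.5% of those of 2. False calls were 5.98% of the calls with edgeR, 22.8% with DESeq2 and 6.96% with limma-voom. The simulation had no library set apart in the way of DMSO replicate 1. No 2 replicates agreed within sampling noise, with chi-square per degree of freedom of 3.70 or more. Total counts ranged from 12375860 to 20666692 per library. GENCODE 44 on GRCh38 gave positions, lengths and overlaps, and RefSeq on GRCh38.p14 the promoter windows. Of the rows, 46 have no gene symbol and were kept under their identifiers.

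The members and all lists were chosen with earlier results of these data known. Values in every library are given for each called member and for BRCA1, and also for ERCC1, chosen after its values were seen. Of each list of other repair or cell cycle genes, the text names the 3 called genes with the largest absolute log2 fold change and a mean of at least 5 CPM. PMS1, MSH3, FANCD2, SMC1A and SMC5 are also named, chosen after their values were seen. A few genes are not reported here.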

Additional observations from a re-analysis of the deposited data

Results flagged for a closer look

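In 16 of the 79 groups of 5 replicates examined over the members, 1 library stood apart by more than Dixon's critical value of 0.71 for the gap to its nearest replicate over the range of the group. Chance alone flags about 1 in 20 such groups, or about 4 here, and groups of different genes share the same libraries.

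DMSO replicate 1 was the library apart in 14 of the 16. It was high in FANCL (gap over range 0.964), XRCC4 (0.960), ERCC1 (0.902), RAD1 (0.893), ERCC4 (0.859), RAD51C (0.826), XRCC5 (0.806) and FANCF (0.731), and low in ERCC3 (0.853), RAD21 (0.813), FANCM (0.765), FANCI (0.763), BRCA1 (0.747) and BRCA2 (0.733). SFN replicate 2 was apart in ERCC2 (0.781), at 64.1 CPM against 51.9 to 54.6 CPM in the other SFN libraries, and SFN replicate 5 in BRCA1 (0.786), at 149 CPM against 102 to 112 CPM.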

How the results depend on the processing

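Each value was recomputed under up to 19 alternatives, and no called member changed direction, nor did the median of the members. Among values near 0, limma-voom turned the medians of the end joining (-0.05), damage-bypass (-0.08) and clamp (0.01) members and of all genes (0.04), scaling to library size alone (-0.10) or the upper quartile (-0.03) also turned that of the damage-bypass members, and leaving out DMSO replicate 1 turned RAD1 (0.20), RAD51B (0.12) and the medians of the clamp members (0.11), the damage-bypass members (-0.11) and the cohesin partners (-0.07). The median of all genes was also above 0 with the replicate block (0.008) and with transcript length offsets (0.006). Under some alternative RAD50 (up to 0.16) and XRCC5 (down to -0.12) also changed sign, as did RAD17, RAD21, RAD23B, RAD51C, ERCC3 and ERCC5 by little. FANCF, FANCE, RAD54L, RAD52, FANCB, RAD54B, ERCC6 and FANCL were past the threshold in all 19 and RAD9B in the 18 in which it could be tested, ERCC4 in 13, BRCA2 in 11 and XRCC3 in 7. Over the scalings and tests the number of lower members ran from 9 with limma-voom to 12 with DESeq2, library size alone or upper quartile scaling. The median log2 fold change of members was -0.25 with library size alone, where that of all genes was -0.11. With a filter of at least 5 CPM, 0 members were higher, because RAD9B was removed. Higher repair genes outside the naming rule numbered 6 in the result given and 3 with library size alone, 10 with DESeq2, 2 with no filter and 12 with length offsets. A limit of 1 on the absolute log2 fold change left 770 lower and 393 higher genes and 5 lower members.

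Leaving out 1 replicate at a time gave 1470 to 3193 lower and 906 to 3058 higher genes, 8 to 18 lower and 1 to 4 higher members, 13 to 57 lower and 2 to 18 higher other repair genes, and a member median of -0.22 to -0.13. The highest counts were all without DMSO replicate 1. Leaving out DMSO replicate 1 and SFN replicate 2 together, chosen after seeing the data, gave 3273 lower and 3106 higher genes, 20 and 4 members, 58 and 19 other repair genes, and a member median of -0.25.

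The labels do not say whether equal replicate numbers mark paired samples. The deviations of equally numbered libraries from their group means correlated from -0.27 to 0.48 across genes, and not every library correlated best with its own number. The value of 0.48 was that of replicate 5. These correlations cannot decide on pairing, because DMSO replicate 1 stood apart from its group. With the replicate number as a block, 1530 genes were lower and 911 higher, 11 members were lower and 1 higher, and 2 other repair genes were higher.

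RAD9B and ERCC5 had fewer than 100 counts in each library. The SE of ERCC5 was 0.31 with all libraries and 0.18 without DMSO replicate 1.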
